A study of Homo sapiens with 56 samples.

Results

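The RNA of 54 mitosis genes was followed across 56 libraries of 4 mantle cell lymphoma cell lines. The genes were taken from the table by symbol: cyclins and kinases of the G2 to M step, spindle, kinetochore and condensin genes, and the proliferation gene MKI67. All 54 were found among the 21596 rows of the deposited table, and all 54 passed the filter on low values in each of the 6 models fitted (at least 1 CPM, the depth-scaled read count of a gene, in at least 2 samples). Mantle cell lymphoma is a cancer of B cells, and its lines divide continuously in culture.

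Entry into mitosis is driven by cyclin B bound to the kinase CDK1, which CDC25 phosphatases switch on. Aurora and Polo-like kinases then direct centrosomes, chromosomes and spindle, the checkpoint proteins hold anaphase until every kinetochore is attached, and CDC20 with the anaphase-promoting complex marks cyclin B and securin (PTTG1) for destruction by the proteasome. Most of these genes are transcribed in late S, G2 and M phase under MYBL2, FOXM1 and the DREAM complex, so their RNA is low in cells that are not cycling. The files hold RNA only, and protein was not measured.

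JEKO-1 and MINO-P gave 15 libraries each, Z138 and MINO-VR 13 each. P and VR name different cultures of the MINO line and are not explained in the labels. The group CON (5 libraries) is read here as the untreated control, and other cells received 1 agent, IBR (11), BTZ (6), S63845 (6), CLF (6) or YM155 (4). A joined code is a combination, and there were 8 libraries of IBR_CLF, 4 of BTZ_CLF, 2 each of BTZ_YM155 and IBR_YM155, and 1 each of BTZ_S63845 and IBR_S63845. S63845 inhibits the MCL-1 protein, and YM155 was made as a suppressant of BIRC5, the gene of survivin. BTZ and IBR are the usual short forms of the proteasome inhibitor bortezomib and the BTK inhibitor ibrutinib, but the labels give the codes alone, without doses or times, and CLF is not expanded here. The study asked whether blocking BIRC5 and MCL-1 could overcome drug resistance in this lymphoma.

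The 8 MINO libraries of CON, CLF, BTZ and BTZ_CLF are named HK and the other 48 libraries MCL, and the labels do not say what differs between these series. Of 37 combinations of line and treatment, 22 had 1 library, 11 had 2 and 4 had 3. The labels do not say that libraries of a group came from separate cultures, so the spread between them may be technical. The p-values measure the spread that each model leaves unexplained. In models that add line and treatment terms, this also holds differences between lines in the response to a treatment. In 8 pairs the library names differed only by a final lower-case a. These paired libraries were far closer (chi-square per degree of freedom 4.10 to 8.65) than the 15 other pairs of a group (52.3 to 364). Each of the 8 was therefore averaged and counted as 1 sample, which left 48. The Z138 pairs, whose names differ by a final capital A, were among the 15 others (52.3 to 310) and were kept as separate samples. Estimated depth was 5.51 to 21.6 M reads. Mitochondrial genes held 1.91% to 80.5% of a library (median 6.69%), and they were left out of every total, so CPM below is taken over all other genes. Replicate numbers only name libraries.

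Some libraries stood apart before any gene was compared. In JEKO-1, BTZ replicates 1 and 2 and both libraries each of BTZ_CLF and IBR_CLF were 59.1% to 80.5% mitochondrial, and 3 reads in them were worth 1.15 to 2.19 CPM, against 0.146 CPM in the library with the most non-mitochondrial reads. JEKO-1 BTZ replicate 3 was 9.92% mitochondrial, had the fewest genes above 0 (11899) and differed from the other BTZ libraries in ways given below. The Z138 IBR_CLF libraries differed from each other, with summed levels of the 54 genes of 6700 and 1937 CPM. The B cell lymphoma markers MS4A1, CD79A, CD79B, PAX5, CCND1, SOX11 and EBF1 were above 1 CPM in 56 of 56 libraries. The summed level of the 10 markers of that list was 4121 to 4855 CPM in CON, 1417 to 3387 in BTZ and 1866 to 6482 in IBR. Of 8 T and NK cell markers, CD3E, CD2 and KLRD1 were above 1 CPM in 0 libraries, CD3D in 1, GNLY in 2, NKG7 in 9, CD3G in 13 and CD8A in 29, and the list summed to 0.325 to 12.5 CPM in CON, 0 to 8.86 in BTZ and 0 to 4.41 in IBR. Monocyte and macrophage markers summed to 0.229 to 29.3, 0 to 75.9 and 0.895 to 124 CPM in the same order, CD68 reaching the highest level of them, and stromal and endothelial markers to 25.5 to 79.3, 9.14 to 74.1 and 7.98 to 54 CPM. The part of these marker levels in the results below was not tested.

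Promoters are shown because many of the 54 genes carry the same short elements. The part of these elements in the changes given below was not tested. RefSeq promoter windows (GRCh38.p14, 250 bases before to 50 after the gene start) were found for 48 of the 54 genes. The letters below are the 160 bases that end just before the start, 5′ to 3′ on the gene's strand, for the 3 genes with the largest fall under BTZ (AURKB, KIF18B and PLK1) and for CDC20, CENPA and MKI67. Capitals mark TTTGAA, the usual core of the cell cycle homology region bound by DREAM and MuvB complexes, and CCAAT, the element bound by NF-Y (ATTGG is CCAAT on the other strand). The stretches lie at chr17:8210226-8210385 (minus strand), chr17:44947774-44947933 (minus strand), chr16:23678729-23678888 (plus strand), chr1:43358821-43358980 (plus strand), chr2:26785896-26786055 (plus strand) and chr10:128126424-128126583 (minus strand).
AURKB: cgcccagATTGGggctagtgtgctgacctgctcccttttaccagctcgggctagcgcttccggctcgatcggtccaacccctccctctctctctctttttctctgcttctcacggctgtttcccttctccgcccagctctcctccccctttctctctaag
KIF18B: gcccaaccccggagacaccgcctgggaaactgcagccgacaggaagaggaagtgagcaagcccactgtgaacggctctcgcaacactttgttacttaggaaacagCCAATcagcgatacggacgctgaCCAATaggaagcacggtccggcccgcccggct
PLK1: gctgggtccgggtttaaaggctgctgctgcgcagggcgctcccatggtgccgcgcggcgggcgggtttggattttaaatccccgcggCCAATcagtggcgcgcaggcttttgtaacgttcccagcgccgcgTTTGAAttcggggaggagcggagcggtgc
CDC20: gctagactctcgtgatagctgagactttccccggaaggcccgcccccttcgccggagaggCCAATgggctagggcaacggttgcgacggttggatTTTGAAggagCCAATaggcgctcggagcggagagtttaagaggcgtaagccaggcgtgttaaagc
CENPA: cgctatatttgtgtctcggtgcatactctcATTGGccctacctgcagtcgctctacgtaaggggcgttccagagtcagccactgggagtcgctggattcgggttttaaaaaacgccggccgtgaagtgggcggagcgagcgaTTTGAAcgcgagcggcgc
MKI67: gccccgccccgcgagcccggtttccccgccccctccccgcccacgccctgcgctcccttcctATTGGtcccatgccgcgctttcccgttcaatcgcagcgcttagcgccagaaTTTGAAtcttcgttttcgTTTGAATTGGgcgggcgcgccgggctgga
Each of the 6 stretches held CCAAT on either strand, and PLK1, CDC20, CENPA and MKI67 also held TTTGAA. In MKI67 the second TTTGAA and an ATTGG shared 1 base. KIF18B has TTTGAA as well, with its first letter at base 3 after the start and so outside the printed stretch. In AURKB neither TTTGAA nor TTCGAA was found in the window, which says only that these letters are not there. The RefSeq starts used for AURKB, PLK1 and CENPA lie inside the spans that the deposited table gives these genes. For AURKB (8204733 to 8210601, minus strand) the window covered 8210176 to 8210475. The bases before the table's own start at 8210601 were therefore not searched.

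Across the windows, TTTGAA or TTCGAA on either strand was present in 37 of 48 mitosis genes (77.08%), against 12.41% of the 14564 windows of the same length for genes of the deposited table. Within 50 bases of the start the shares were 62.5% and 3.56%. Among 51 other mitosis genes with a window the element was present in 54.9%, and among 36 DNA replication genes in 5.56%. CCAAT was present in 72.92% of the 54-gene list's windows and 36.03% of all table genes' windows, and was found at least 2 times in 47.92% and 13.03%. A match describes letters in the window and does not show binding, and no test was made of these shares.

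**Figure D1:**
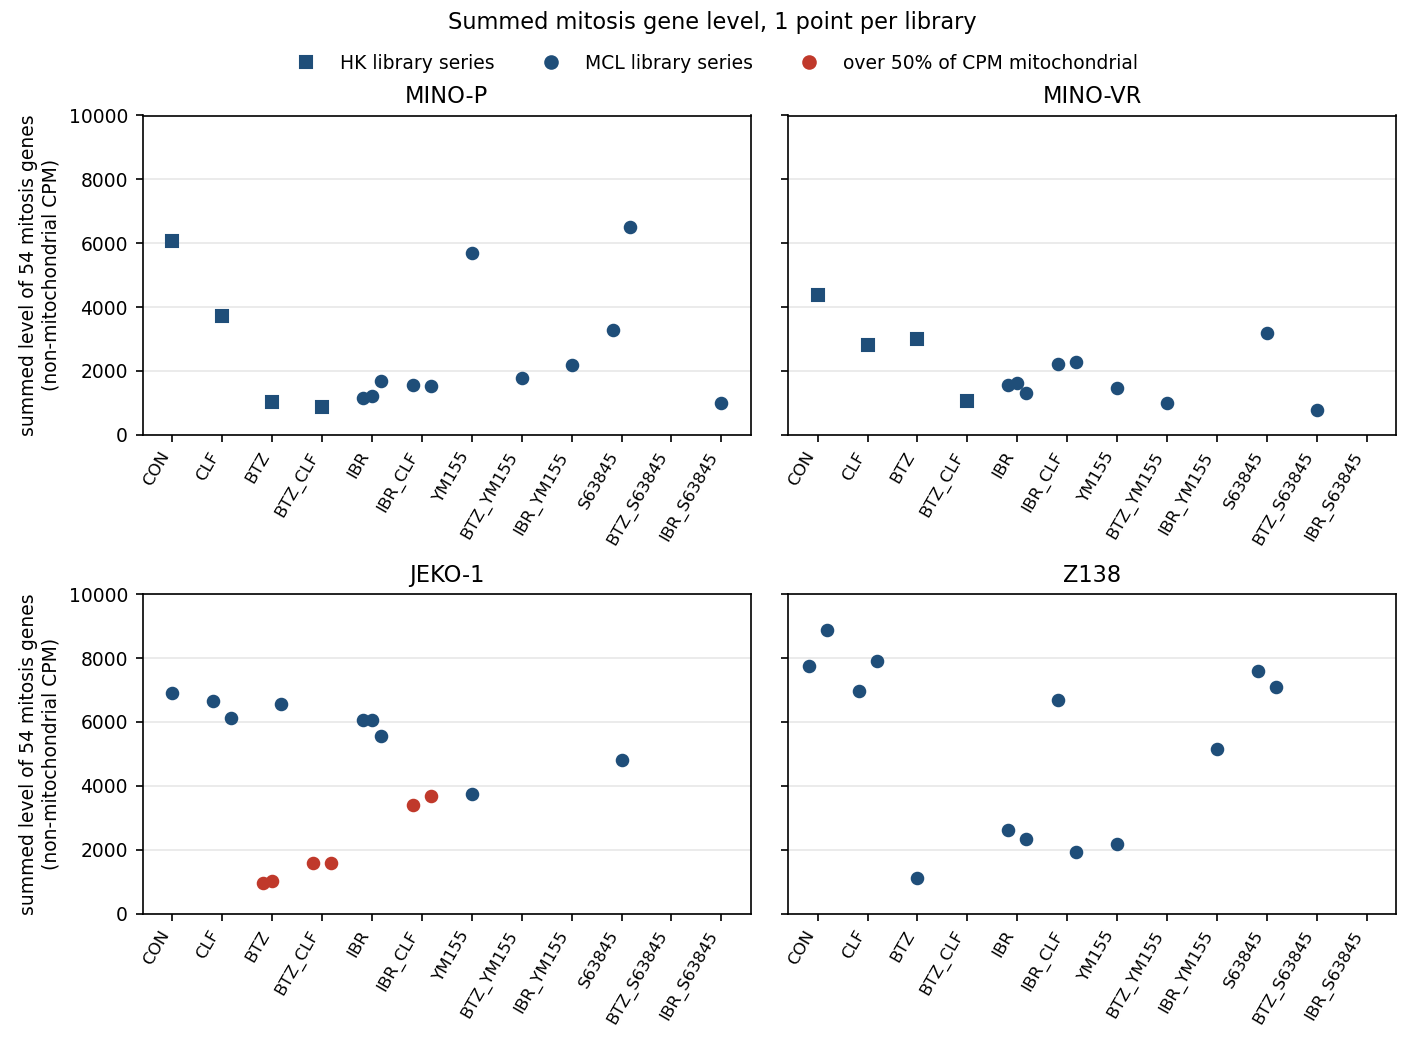
Summed level of the 54 mitosis genes (CPM of non-mitochondrial genes, vertical axis from 0) by treatment in each line, 1 point per library, with squares for libraries named HK, circles for libraries named MCL and red for libraries over 50% mitochondrial. BTZ libraries lie at 943 to 1116 CPM in JEKO-1 replicates 1 and 2, MINO-P and Z138 but at 6557 in JEKO-1 replicate 3, and untreated libraries lie at 4365 to 8872.

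Untreated cells of every line held high levels of these RNAs, and most BTZ libraries held a small part of them. The summed level of the 54 genes, in which abundant and long RNAs weigh most, was 6065 CPM in MINO-P, 4365 in MINO-VR, 6909 in JEKO-1 and 7746 and 8872 in the Z138 CON libraries. With BTZ it was 1029 CPM in MINO-P, 3007 in MINO-VR, 943, 1007 and 6557 in JEKO-1 and 1116 in Z138. Every BTZ library was therefore below CON of its own line, MINO-VR and JEKO-1 replicate 3 by the least. Adding CLF to BTZ gave 873 CPM in MINO-P, 1045 in MINO-VR and 1567 and 1569 in JEKO-1. In bulk RNA, fewer cells in mitosis and less RNA per such cell cannot be told apart.

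BTZ against CON, in 1 model over all lines with treatment, cell line and library name series (HK or MCL) as terms, lowered 49 of the 54 genes and raised 0. In the same comparison 12.6% of the 16755 genes tested were called lower and 4.12% higher, 16.7% in all (limma, Benjamini-Hochberg adjusted p under 0.05). The median log2 fold change of the 54 was -2.11, with a range of -4.02 to -0.53, and the median of all genes was -0.19. With CPM as deposited these medians were -2.33 and -0.38, and with median-ratio size factors -1.94 and -0.08. In 23 of the 49 the BTZ and CON samples did not overlap, and in the other 26 they did. Overlap was not counted over all genes, so these counts do not set the 54 apart from other genes. Fold changes here and below are of CPM + 1, which understates the change of low genes. Left-out libraries moved the count between 42 and 54, the latter without JEKO-1 BTZ replicate 3, and the count was 31 without the line MINO-P and 28 without Z138.

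Of the Aurora and Polo-like kinases 4 of 4 fell, with a median of -2.64. AURKB, the catalytic subunit of the chromosomal passenger complex (ENSG00000178999, chromosome 17, 8204733 to 8210601), stood at 78.3 CPM in MINO-P CON, 46.8 in MINO-VR, 42.3 in JEKO-1 and 91.8 and 94.4 in Z138. Under BTZ it stood at 2.82 CPM in MINO-P, 23.7 in MINO-VR, 0, 0 and 2.44 in JEKO-1 and 1.43 in Z138, so the groups did not overlap and MINO-VR was the highest treated library. The 2 JEKO-1 libraries listed at 0 were shallow, with 3 reads worth 1.29 and 1.68 CPM. AURKB averaged 70.7 ± 24.7 CPM in CON and 6.07 ± 9.89 in BTZ (SD, n = 5 samples each), a log2 change of -4.02 with an SE of 0.56 (adjusted p 1.79e-05 in limma), which was the lowest fitted value of all 16755 genes. PLK1, which acts from mitotic entry to cytokinesis, averaged 121 ± 21.8 CPM in CON and 17.8 ± 24.7 in BTZ (-3.60, SE 0.62, adjusted p 0.000146). PLK1 in MINO-VR BTZ, at 61.7 CPM, was again the treated library nearest to its control of 93.3. AURKA, the spindle pole Aurora kinase, fell by 1.67 on the log2 scale (SE 0.39, adjusted p 0.00269). INCENP and CDCA8 (borealin), the passenger partners of AURKB, both fell, by 1.25 and 2.17.

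Of the 6 cyclin, CDK1 and CDC25 genes 5 fell, with a median of -1.97. CDK1, the mitotic kinase itself, averaged 99.5 ± 29.4 CPM in CON and 32.5 ± 44.8 in BTZ (-2.57, SE 0.54, adjusted p 0.00101). The CDK1 groups overlapped because of JEKO-1 BTZ replicate 3, at 110 CPM, beside 3.43 and 8.91 in replicates 1 and 2. CCNB1 (cyclin B1) averaged 124 ± 24.3 CPM in CON and 40.8 ± 25.2 in BTZ (-1.82, SE 0.43, adjusted p 0.00277), and without JEKO-1 its adjusted p was 0.0638. CDC25B, a phosphatase that activates CDK1, fell by 1.59 (SE 0.46, adjusted p 0.0139), with an adjusted p of 0.26 without Z138. CDC25C, its relative, was low throughout (8.59 ± 1.97 CPM in CON) and was not called, at -1.24 (SE 0.48, adjusted p 0.0673).

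Among genes of anaphase and sister cohesion 5 of 5 fell, with the lowest median of the roles (-2.76). CDC20, the activator of the anaphase-promoting complex, stood at 84.8 to 122 CPM in the 5 CON libraries and under BTZ at 5.13 CPM in MINO-P, 48.7 in MINO-VR, 7.71, 8.35 and 2.07 in JEKO-1 and 12.3 in Z138. Its groups did not overlap, and its log2 fold change was -3.29 (SE 0.60, adjusted p 0.000257). ESPL1 (separase, the protease that cuts cohesin) changed by -3.46 and UBE2C, the ubiquitin-conjugating partner of the complex, by -2.76 (SE 0.49, adjusted p 0.000202). PTTG1 (securin), at 61.6 ± 21.8 CPM in CON and 22.9 ± 5.55 in BTZ, changed by -1.49. Reads of PTTG1 could be shared with its near-identical relatives, since the counting rule is not given in the sources used here.

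At the centromere and kinetochore 6 of 7 fell (median -2.21). CENPA, the histone that marks the centromere, fell by 2.61 (SE 0.54, adjusted p 0.000868). It was listed at 0 CPM in Z138 BTZ, where 3 reads were worth 0.154 CPM, against 20.5 and 23.3 in Z138 CON. NDC80, which ties microtubules to the kinetochore, fell by 2.53 (SE 0.46, adjusted p 0.000221). CENPE, the kinetochore kinesin, was not called (-1.68, SE 0.65, adjusted p 0.0681). Of the spindle checkpoint 4 of 5 fell (median -1.43). BUB1, a checkpoint kinase, fell by 2.39 (SE 0.45, adjusted p 0.000329) and TTK (MPS1), the kinase upstream of it, by 1.43 (SE 0.43, adjusted p 0.0179). BUB3, the adaptor that carries BUB1 and BUB1B, had the smallest change of the list and was not called, at 222 ± 43.8 CPM in CON and 171 ± 69.2 in BTZ (-0.53, SE 0.20, adjusted p 0.0682).

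Of 10 mitotic kinesins 8 fell (median -2.23). KIF18B, which trims astral microtubules, stood at 54.9 CPM in MINO-P CON, 31.2 in MINO-VR, 34.5 in JEKO-1 and 63.2 and 88.2 in Z138. Under BTZ it stood at 3.57 CPM in MINO-P, 17.8 in MINO-VR, 0, 0 and 0.0738 in JEKO-1 and 1.64 in Z138, with no overlap (-3.93, SE 0.59, adjusted p 3.22e-05). The JEKO-1 values were all below the worth of 3 reads in their libraries. KIF11 (Eg5), the motor that separates the poles, fell by 1.78 (SE 0.42, adjusted p 0.00306). KIF14 (-1.36, SE 0.55, adjusted p 0.0823) and KIF20B (-0.75, SE 0.43, adjusted p 0.25), both motors of cytokinesis, were not called. KIF20B averaged 66.0 ± 9.86 CPM in CON and 63.6 ± 69.4 in BTZ, and its BTZ mean was carried by JEKO-1 replicate 3 at 180 CPM.

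All 7 spindle and midzone genes fell under BTZ (median -1.93), among them TPX2, the activator of AURKA (-2.31, SE 0.51, adjusted p 0.0017). All 6 condensin and topoisomerase genes fell (median -1.92). TOP2A, which untangles sister DNA, averaged 495 ± 114 CPM in CON and 112 ± 133 in BTZ (-3.12, SE 0.59, adjusted p 0.000344). NCAPG, a condensin I subunit, fell by 2.10 (SE 0.47, adjusted p 0.00199) and SMC4, a condensin ATPase, by 1.28 (SE 0.34, adjusted p 0.00837), with an adjusted p of 0.0909 without Z138. FOXM1, a transcription factor of G2 and M genes, fell by 2.17 (SE 0.53, adjusted p 0.00372). MKI67 (Ki-67) fell by 2.86 (SE 0.76, adjusted p 0.00824), from 536 ± 416 CPM to 190 ± 316, and its adjusted p was 0.179 without Z138.

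**Figure D2:**
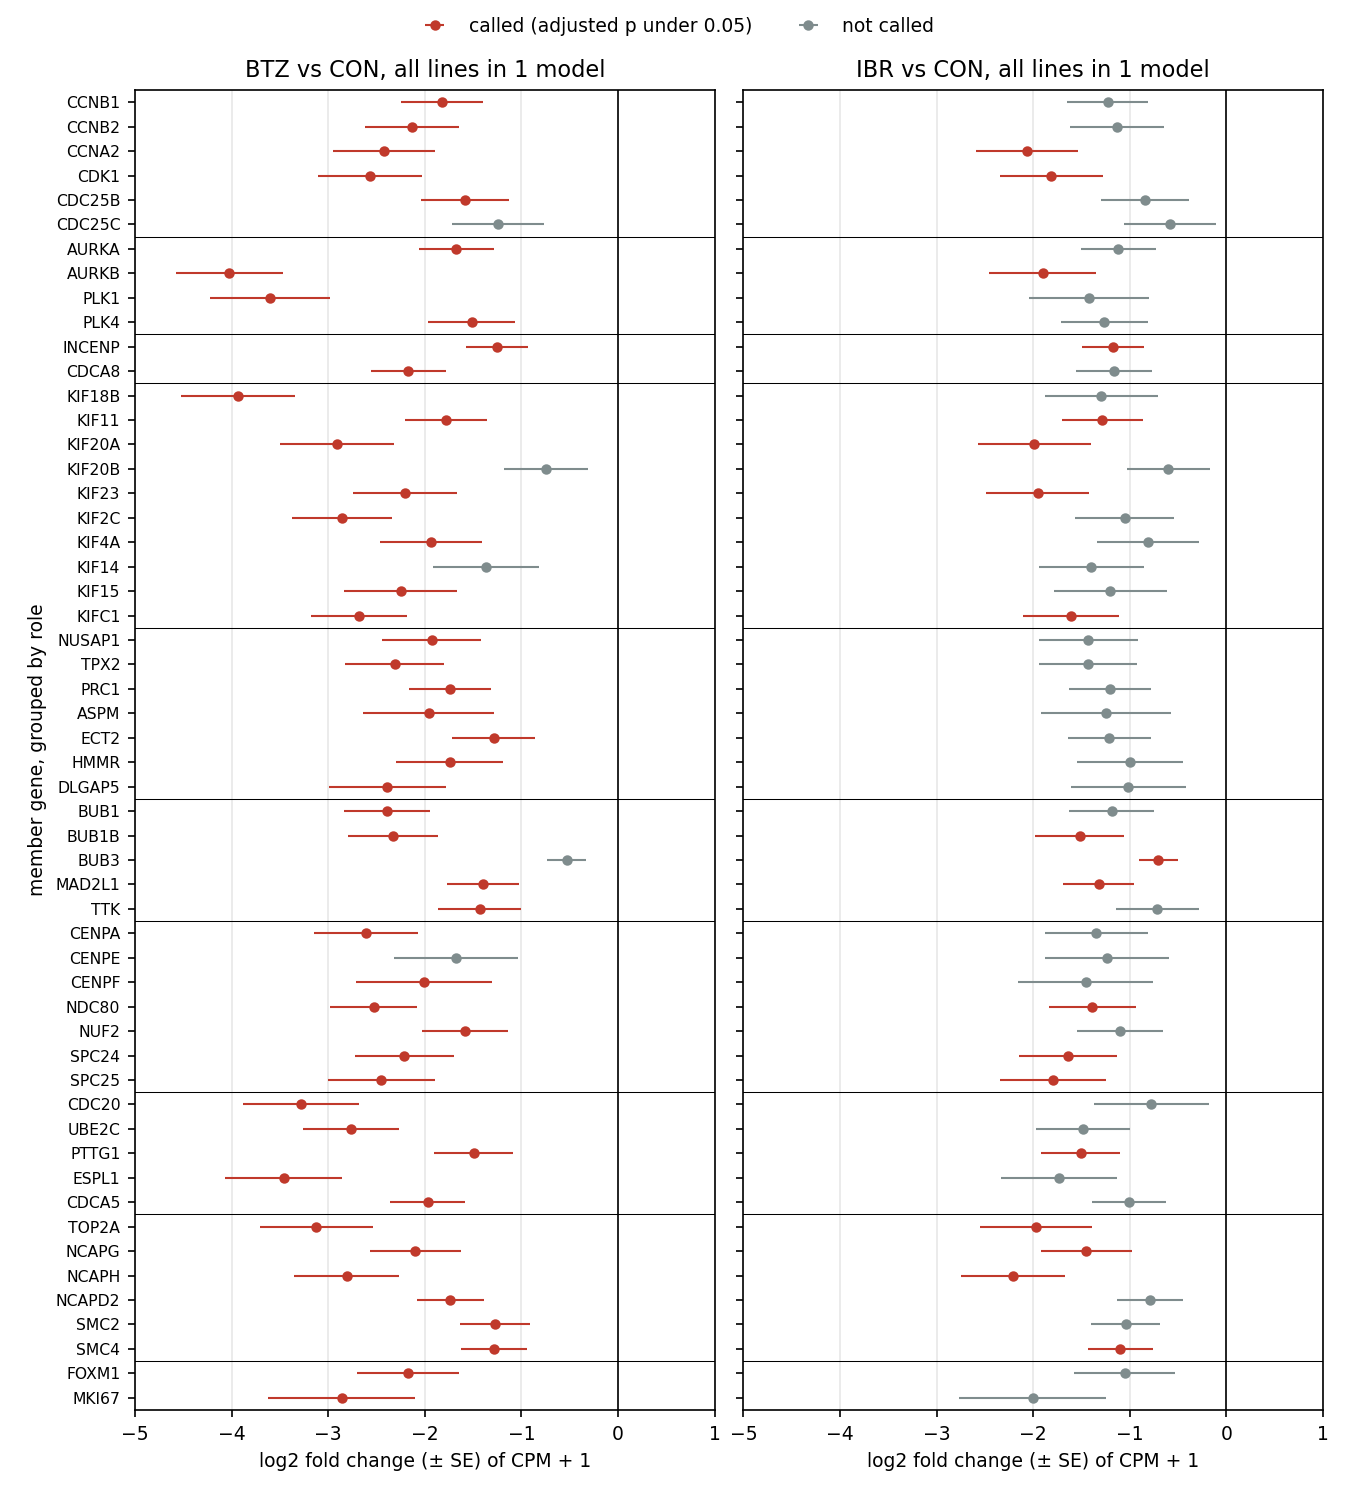
Log2 fold change of CPM + 1 with its SE for each of the 54 genes, grouped by role, for BTZ against CON (left) and IBR against CON (right), with red for an adjusted p under 0.05 and grey for the others. Every point lies below 0 in both panels, 49 are called on the left and 19 on the right, and BUB3 and KIF20B lie nearest to 0 under BTZ.

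The fall under BTZ was also tested inside the HK series, whose libraries are part of the model over all lines too, so this is not separate support. The model added the effects of line, CLF and BTZ, and each line and treatment had 1 library. Its p-values therefore rest on departures from added effects and not on replicates. In the 8 HK libraries of MINO-P and MINO-VR, 4 with BTZ and 4 without, where each arm held CLF and CLF-free libraries of both lines, 53 of 54 genes fell (median -1.84). There 35.6% of 13442 genes were called lower and 20.6% higher, 56.2% in all. UBE2C fell from 29.1 ± 8.20 CPM to 4.83 ± 4.17 (-2.57, SE 0.30, adjusted p 0.00029), with no overlap. TOP2A (-3.21, SE 0.55, adjusted p 0.00167), AURKB (-2.94, SE 0.49, adjusted p 0.00145) and SPC24, an NDC80 complex subunit (-2.90, SE 0.47, adjusted p 0.00129), had the largest falls. KIF20B was not called (-0.59, adjusted p 0.0692). Of the 53 calls, 50 held in all alternatives of that comparison. The Z138 libraries were fitted alone as well, but they hold 1 BTZ library, whose spread is assumed to be that of the other Z138 groups, so its values describe that library and support nothing on their own. Against the 2 CON libraries 30 genes were called lower (median -2.61), where 5.17% of 14120 genes were called lower and 1.26% higher, 6.43% in all. MKI67 stood at 24.3 CPM there against 542 and 1245 in CON (-5.02, SE 0.92, adjusted p 0.0281). AURKB (-5.27, adjusted p 0.0364) and KIF18B (-4.84, adjusted p 0.0215) were called lower as well. That count ranged from 0 to 46 with libraries left out. It was 0 without either CON or either S63845 library, 12 or 13 without 1 of the CLF libraries and 46 without either IBR_CLF library, and it was 48 with the final letter of the library names as a block.

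The lines differed in how far the genes fell, but the difference itself was called for 1 gene. At least 2-fold below CON of the same line were 52 of 54 genes in MINO-P BTZ, 3 in MINO-VR BTZ, 54, 53 and 21 in the JEKO-1 BTZ libraries and 52 in Z138 BTZ. The MINO-VR library with BTZ and CLF had 52, so the small shift in MINO-VR was seen in 1 library. All genes were not counted in this way, so the 2-fold counts here and below have no share of all genes beside them and only describe the libraries. In a model of the CON, CLF, BTZ and BTZ_CLF libraries with the BTZ effect free in each line, the median effect was -2.79 in MINO-P (38 genes called lower, 7.63% of all genes), -1.04 in MINO-VR (0 called, 3.31%), -2.05 in JEKO-1 (34 called, 11.3%) and -2.86 in Z138 (36 called, 9.57%). The F-test of a difference between lines called CDC25B, with an F of 9.27 and an adjusted p of 0.0416, where 4.1% of 15301 genes were called. CDC25B changed by -3.29 in Z138 and -1.56 in JEKO-1, and stood at -0.61 in MINO-P and -0.42 in MINO-VR, where it was not called. The number of members called was 25 without JEKO-1 BTZ replicate 3, 7 without JEKO-1 BTZ replicates 1 and 2, and between 0 and 2 without any of the 16 other samples that could be left out. The calls among all genes rose as well, from 627 to 4756 without JEKO-1 BTZ replicate 3. They were 1310 without JEKO-1 BTZ replicates 1 and 2. The 25 and the 7 are therefore not to be read against the 4.1%.

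JEKO-1 BTZ replicate 3 did not lower all mitosis genes alike. Against JEKO-1 CON, 21 genes were at least 2-fold lower, 27 were within 2-fold and 6 were at least 2-fold higher. The 6 were KIF20B, KIF14, MKI67, CENPF, CENPE and ASPM, named after their values were seen. MKI67 stood at 747 CPM in it, against 231 in CON and 9.43 and 7.24 in the other BTZ libraries. CCNB1 stood at 18.7 CPM, against 165 in CON and 28.3 and 35.6. The longest coding transcripts of the 6 higher genes, from the GENCODE annotation, spanned 6419 to 12678 bases (median 9459.5), those of the 21 lower genes 914 to 6623 (median 2706) and those of the other 27 genes 1452 to 7828 (median 3605). BUB3, at 7828 bases, was longer than some of the 6 and stood at 292 CPM against 293 in CON. Over all genes with a mean of at least 10 CPM, the median shift from CON of the 1806 genes with transcripts of at least 6000 bases exceeded that of the 1826 genes of at most 2000 bases by 2.84 log2 units in this library, the highest of the 56. The next was JEKO-1 IBR replicate 3 at 1.1. In JEKO-1 BTZ replicate 3 the median shift was 0.999 for the long genes and -1.84 for the short genes. The part of transcript length in the result was not tested, and leaving this library out raised the BTZ count from 49 to 54.

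**Figure D3:**
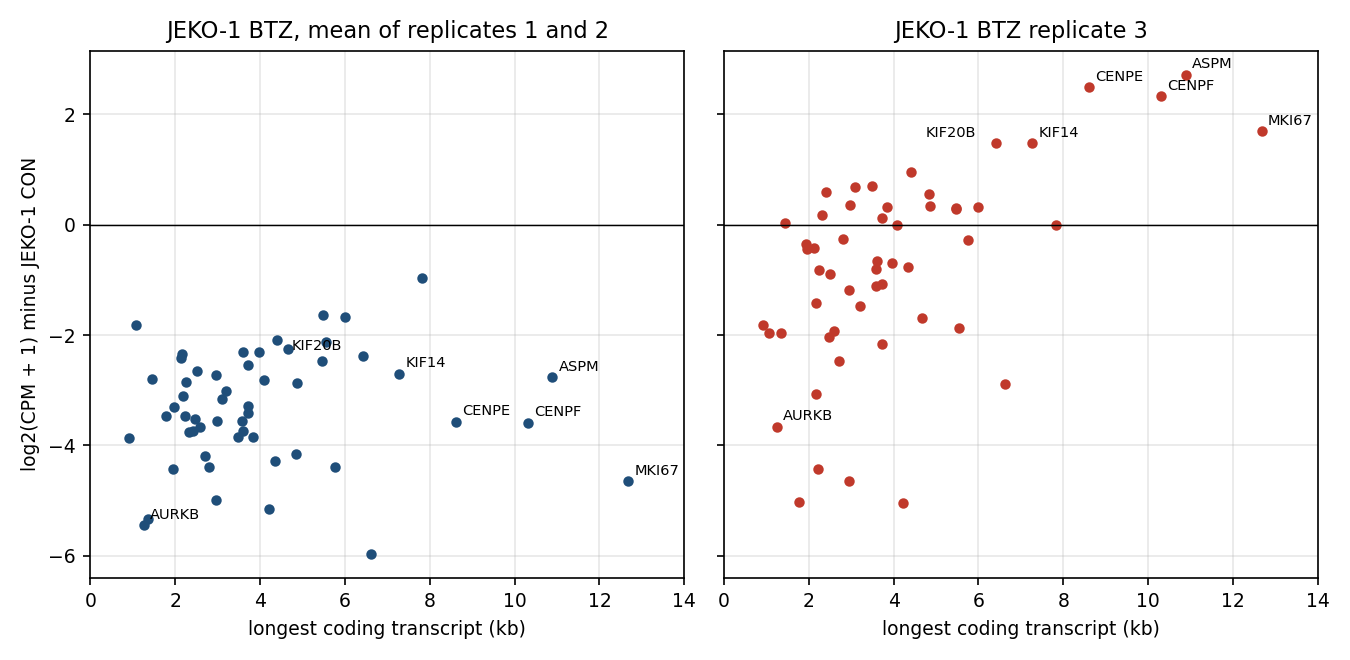
Difference of log2(CPM + 1) from JEKO-1 CON against the length of the longest coding transcript (kb) for the 54 genes, as the mean of JEKO-1 BTZ replicates 1 and 2 (left) and in replicate 3 (right). Every gene lies below 0 on the left, and on the right the 6 genes at least 2-fold higher all have transcripts of at least 6419 bases.

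Under IBR 19 of the 54 genes fell, and levels were low in Z138 and both MINO cultures and near control in JEKO-1. The summed level was 1165 to 1675 CPM in the 3 MINO-P IBR libraries, 1315 to 1628 in the 3 of MINO-VR, 2343 and 2612 in the 2 of Z138 and 5564 to 6075 in the 3 of JEKO-1. At least 2-fold below CON of the line were 51 to 52 genes in MINO-P, 40 to 49 in MINO-VR, 40 and 44 in Z138 and 4 to 9 in JEKO-1. Those 19 calls, with 0 higher, came from the model over all lines (median of the 54 -1.25, range -2.21 to -0.58), where 4.95% of all genes were called lower and 3.2% higher, 8.15% in all, and the median of all genes was -0.00. The IBR and CON libraries of MINO carry different series names, so there the drug is compared only through the series term, which rests on treatment effects in the other lines. The count was 40 without that term and 0 without MINO-P or without Z138. BTZ and IBR were set against the same CON libraries, so the 2 sets of falls are not independent.

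By role, 4 of 6 condensin and topoisomerase genes, 4 of 10 kinesins, 3 of 5 checkpoint genes and 3 of 7 kinetochore genes fell under IBR, with 2 of 6 cyclin and CDK genes, 1 of 4 Aurora and Polo kinases, 1 of 2 passenger partners, 1 of 5 anaphase genes and 0 of 7 spindle genes. NCAPH, a condensin I subunit, stood at 39.9 CPM in MINO-VR CON and at 64.8 to 106 in the 4 other CON libraries. Under IBR it stood at 3.52 to 12.2 CPM in MINO-P, 4.59 to 8 in MINO-VR, 12.7 and 13.6 in Z138 and 38.0 to 49.1 in JEKO-1. Its log2 fold change was -2.21 (SE 0.54, adjusted p 0.00909), and the groups overlapped, since JEKO-1 with IBR reached above MINO-VR CON. CCNA2 (cyclin A2) changed by -2.06 (SE 0.53, adjusted p 0.0127), KIF20A, the midzone motor, by -1.99 (SE 0.59, adjusted p 0.0302) and TOP2A by -1.97 (SE 0.58, adjusted p 0.0302). AURKB averaged 14.6 ± 5.21 CPM (n = 8) against 70.7 in CON (-1.90, SE 0.55, adjusted p 0.0274), without overlap. CDK1 (-1.81, SE 0.53, adjusted p 0.0294), NCAPG (-1.45, adjusted p 0.0471), NDC80 (-1.39, adjusted p 0.0493), KIF11 (-1.28, adjusted p 0.0493), SMC4 (-1.1, adjusted p 0.0388) and BUB3 (-0.70, SE 0.20, adjusted p 0.0262) also fell. None of the 19 kept its call in all 25 alternatives.

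CDC20 and PLK1, among the genes with the largest falls under BTZ, were not called under IBR. CDC20 stood at 187, 178 and 58.1 CPM in JEKO-1 IBR against 98.2 in CON, and at 26.5 to 46.8 in MINO-P against 89.2. Its fitted change was -0.78 (SE 0.60, adjusted p 0.476). PLK1 stood at 199, 223 and 98.7 CPM in JEKO-1 IBR against 126 in CON, and at 32.8 and 9.92 in Z138 against 150 and 108 (-1.42, adjusted p 0.154). FOXM1 (-1.05, adjusted p 0.223), CCNB1 (-1.23, adjusted p 0.062) and MKI67 (-2.01, SE 0.76, adjusted p 0.0942) were not called either.

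Within Z138, whose libraries carry 1 series name, the 2 IBR libraries against 2 CON libraries gave 0 called genes of all 14120 (0%). The smallest adjusted limma p of a member was 0.105. The median was -1.53, and MKI67 stood at 60.9 and 115 CPM against 542 and 1245. Without either of the IBR_CLF libraries 30 members were called, and without Z138 IBR replicate 2 the count was 1. With the final letter of the library names as a block it was 11. With the IBR effect free in JEKO-1 and Z138, in a model that also held CLF and IBR_CLF libraries, the median effect was -0.44 in JEKO-1 (0 members called, 1.36% of all genes called lower) and -1.33 in Z138 (19 called, 3.1%). The difference between the lines was called for 0 members, where 0.139% of 15090 genes were called (0.133% lower and 0.00663% higher in Z138). The members had a median difference of -0.87 and a smallest adjusted limma p of 0.306.

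**Figure D4:**
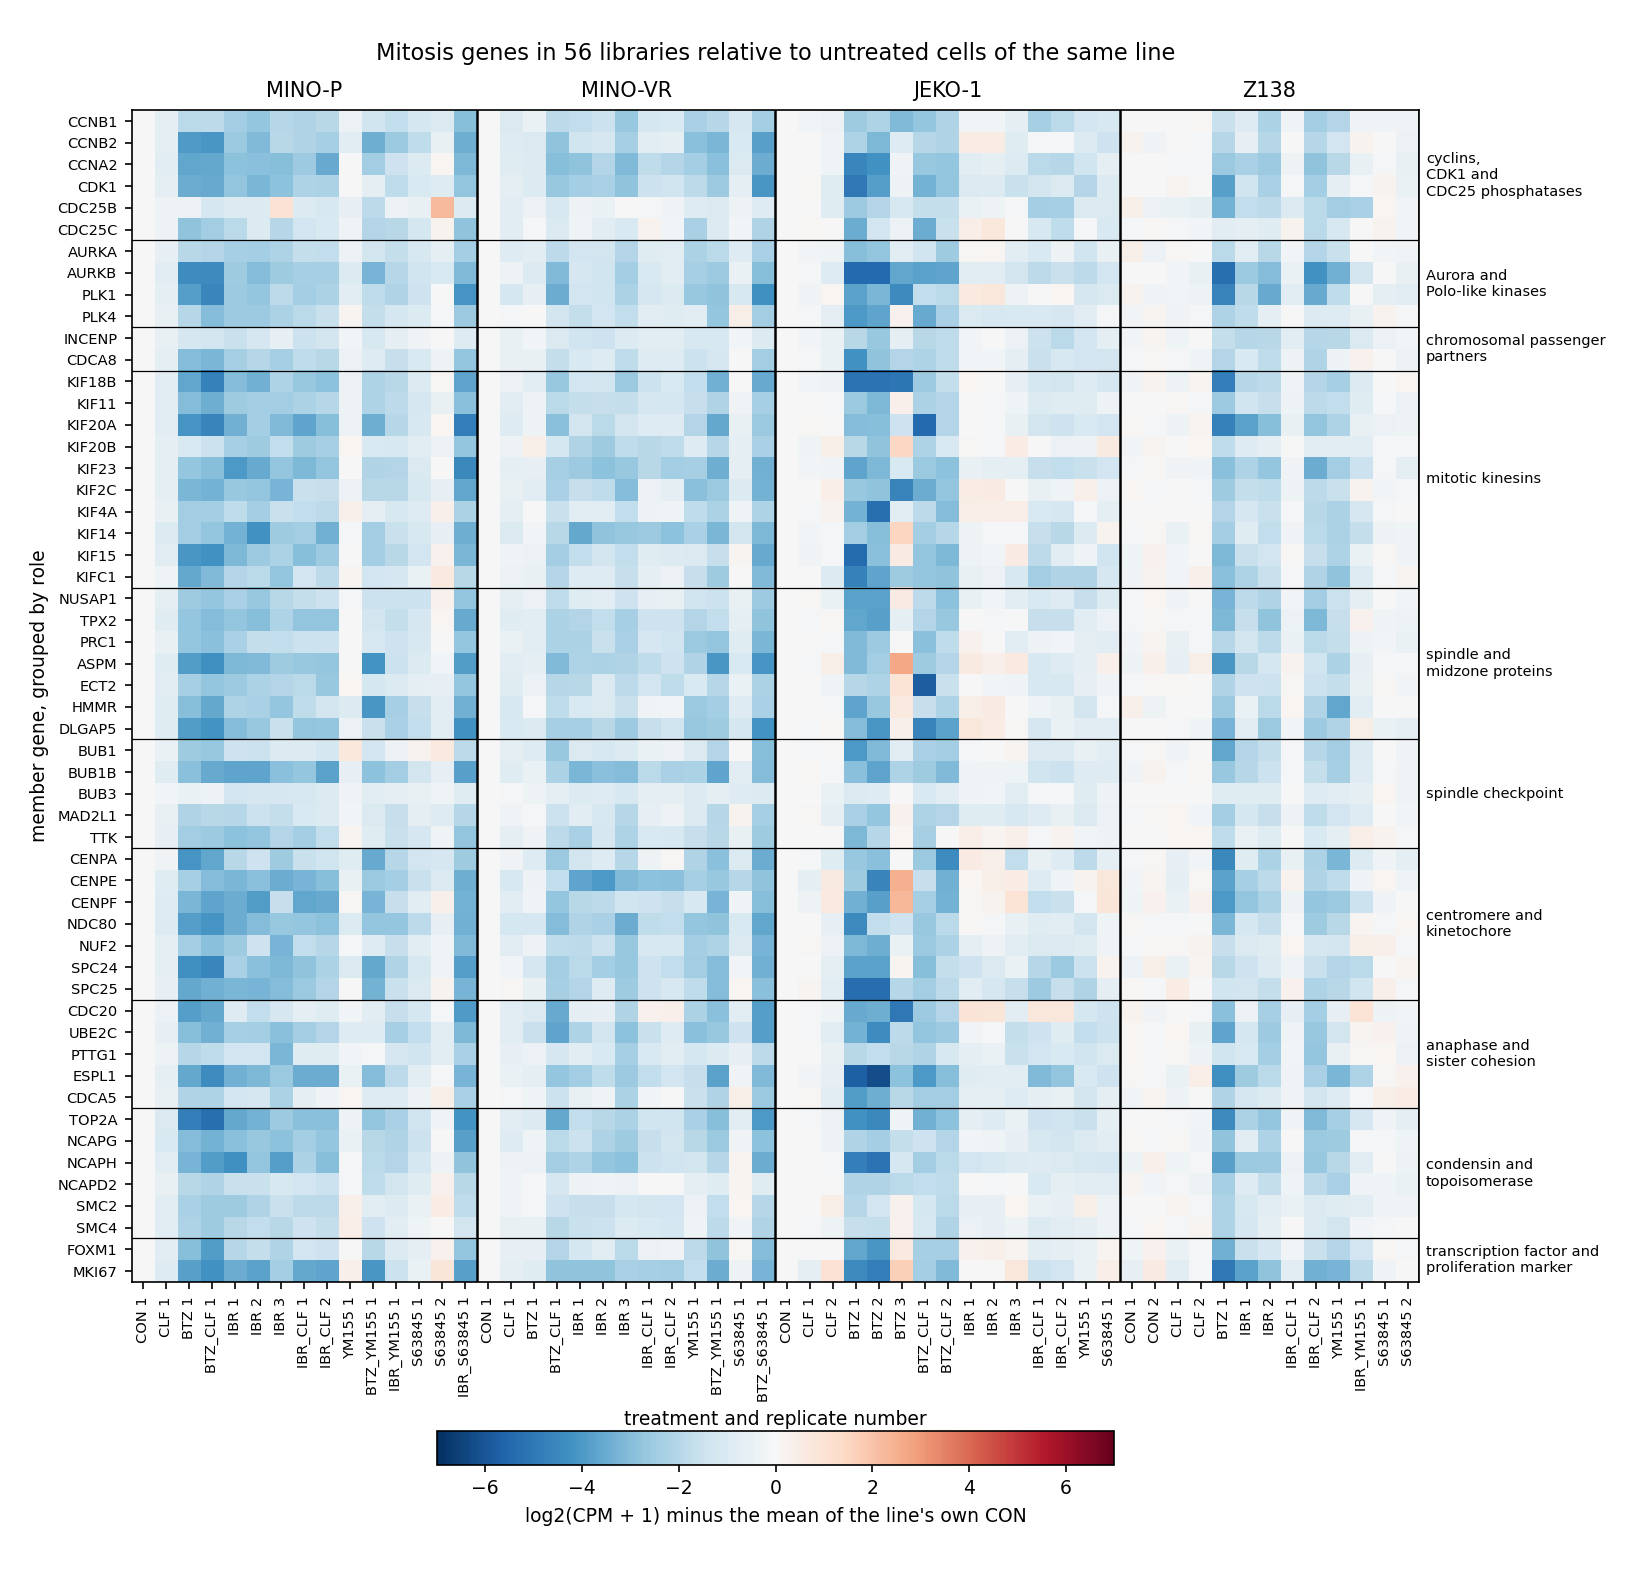
Difference of log2(CPM + 1) from the mean of the line's own CON libraries for the 54 genes (rows, by role) in the 56 libraries (columns, by line and treatment), in blue where lower and red where higher. Nearly all genes are blue in BTZ libraries of MINO-P, Z138 and JEKO-1 replicates 1 and 2 and in IBR libraries of MINO-P, while JEKO-1 BTZ replicate 3 holds 6 genes at least 2-fold higher.

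YM155, S63845 and CLF alone gave 0 called members each. YM155 left the summed level at 5705 CPM in MINO-P (6065 in CON) and at 1475 in MINO-VR, 3731 in JEKO-1 and 2190 in Z138, each 1 library. At least 2-fold below CON were 0 genes in MINO-P, 46 in MINO-VR, 27 in JEKO-1 and 44 in Z138. The median fitted change was -0.98, where 0.531% of all genes were called (0.185% lower and 0.346% higher), and the smallest adjusted limma p of a member was 0.109. AURKB stood at 39.3 CPM in MINO-P, 8.38 in MINO-VR, 11 in JEKO-1 and 8.17 in Z138 with YM155, all below the 42.3 to 94.4 of CON (-1.96, SE 0.63, adjusted p 0.134). Without the MINO-P YM155 library 5 members were called. As for IBR, the MINO libraries of YM155 and S63845 carry another series name than MINO CON.

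S63845 gave 0% of genes called in limma and a median member change of -0.16, with 0 members and 406 of all genes at an unadjusted p under 0.05. The 2 MINO-P S63845 libraries differed, at 3283 and 6495 CPM in summed level, and the other lines had 3175 (MINO-VR), 4805 (JEKO-1) and 7608 and 7099 (Z138). CDC25B stood at 75.5 CPM in the MINO-P S63845 library of lower sum and 527 in the other, against 107 in CON. CLF gave 0% of genes called as well, with 0 members and 58 of all genes at an unadjusted p under 0.05. All 54 fitted changes under CLF lay below 0 (median -0.33, range -0.57 to -0.04), and the median of all genes was -0.007. The summed level with CLF was 3718 CPM in MINO-P, 2811 in MINO-VR, 6642 and 6116 in JEKO-1 and 6982 and 7917 in Z138, the last pair overlapping the CON range of that line.

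Each of 4 combinations was compared with 1 of its components, and 0 members were called in any of these comparisons. IBR_CLF against IBR gave 0 (0% of all genes in limma, 0 members and 715 genes at an unadjusted p under 0.05, median 0.20). Its summed level was 1524 and 1557 CPM in MINO-P, 2214 and 2270 in MINO-VR, 3402 and 3693 in JEKO-1 and 6700 and 1937 in Z138. In the first Z138 library 0 genes were at least 2-fold below CON and in the second 50. BTZ_CLF against BTZ gave 0 (0% of all genes in limma, 1 member and 607 genes unadjusted, median -0.55). BTZ_YM155 against YM155 gave 0 members (0.412% of all genes called, 0.161% lower and 0.251% higher), with a median of -0.56 and a smallest adjusted limma p of 0.328. The summed level there was 1761 CPM in MINO-P, against 5705 with YM155 alone, and 1002 in MINO-VR, against 1475. IBR_YM155 against YM155 gave 0 (0% of all genes in limma, 0 members and 353 genes unadjusted, median 0.27), with a summed level of 2182 CPM in MINO-P and 5161 in Z138. The libraries of IBR_S63845 in MINO-P (1006 CPM) and BTZ_S63845 in MINO-VR (767 CPM) have no replicate and were not tested, and both were below S63845 alone in their line (3283 and 6495, and 3175).

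MINO-VR and MINO-P differed in 2 of the 54 genes when libraries of treatments that both received were compared, both lower in MINO-VR, where 7.26% of 14534 genes were called lower and 9.87% higher, 17.1% in all. SMC4 averaged 106 ± 46.5 CPM in MINO-VR (n = 10) and 210 ± 145 in MINO-P (n = 11), a log2 difference of -0.72 (SE 0.17, adjusted p 0.00779). BUB3 averaged 115 ± 31.4 and 156 ± 43.0 CPM (-0.42, SE 0.11, adjusted p 0.0139). The untreated libraries stood at 180 and 360 CPM for SMC4 and 173 and 224 for BUB3. Both genes were called in all 27 alternatives of that comparison. The fitted differences of the 54 genes had a median of -0.13 and reached 0.33 at the highest.

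Genes that work beside the 54 were counted from lists chosen by function, to be read against the 12.6% of all genes called lower and 4.12% called higher under BTZ, and the 4.95% and 3.2% under IBR. Of 67 other mitosis genes 41 fell and 0 rose under BTZ, led by DEPDC1B (-3.03, SE 0.53, adjusted p 0.000175) and PKMYT1, the kinase that restrains CDK1 (-3.01, SE 0.51, adjusted p 0.000111). Of 40 DNA replication genes 33 fell and 0 rose, led by the thymidine enzymes TK1 (-3.43) and TYMS (-3.06). Of 14 subunits of the anaphase-promoting complex 4 fell and 1 rose (ANAPC10, 0.77), and of 10 cohesin and loader genes SMC3 fell (-1.14) and WAPL, the cohesin release factor, rose (0.55). The 2 calls among the 10 cohesin genes are a share near the 16.7% of all genes called. Of 17 CDK inhibitor and DREAM genes 7 fell, led by RBL1 (p107, -1.91) and CDKN2D (-1.88), and LIN52 rose (0.56). Under IBR 18 of the 67 other mitosis genes fell, among them DEPDC1B (-2.17) and MYBL2 (-2.14), and 28 of the 40 replication genes, led by RRM2 (-3.56, SE 0.69, adjusted p 0.00167) and UHRF1 (-3.30, SE 0.71, adjusted p 0.00343). In the other lists 2 complex subunits (ANAPC15 and ANAPC1), SMC1A and 3 of the 17 inhibitor and DREAM genes fell under IBR and 0 rose. Under YM155 ANAPC15 (-1.37, SE 0.27, adjusted p 0.0196) and CDKN2C (-1.59, SE 0.35, adjusted p 0.0262) fell, and 0 genes of the other 3 lists were called, where 0.531% of all genes were. Inside the MINO HK libraries, where 35.6% of all genes were called lower and 20.6% higher, 50 of the 67 other mitosis genes fell under BTZ and 5 rose, among the latter TUBB4B, a tubulin (1.63), and ZW10, a checkpoint gene (0.83). Between the MINO cultures 4 of the 67 were called lower in MINO-VR and 1 higher, no larger a share than the 7.26% and 9.87% of all genes.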

How the data were processed

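Poly-A RNA-seq of 56 cell line libraries was measured. Per the file header and values, the authors deposited log2(CPM + 1) per gene, and per the submitters' processing notes Partek and hg38 were used. The counting rule, strand use and filters are not given in the sources used here. The log2 was undone, 15 mitochondrial genes and 1 unnamed entry (at most 0.000773% of a library) were left out, and CPM was taken over the other genes. Depth, estimated from the spacing of low values (71.4% to 87.7% whole reads, tolerance 0.05), was 5.51 to 21.6 M reads. Floors are 3 reads and cover counting error only. Tests were run on log2(CPM + 1), pseudocount 1, in limma 3.58.1 (R 4.3.3, variance trend on), with genes with at least 1 CPM in at least 2 samples, and calls at a Benjamini-Hochberg adjusted p under 0.05 over all genes tested. The script was tested on simulated data. Named genes were a fixed set of anchors, the 3 called members with the largest fall and rise per comparison, and the 2 largest called changes each way in the other lists. Members, lists and named genes were chosen with earlier results of these data known. Alternatives changed the scaling, pseudocount, filter, pairs, series term, lines and libraries. Promoters and motif searches used RefSeq (GRCh38.p14).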

Additional observations from a re-analysis of the deposited data

Results flagged for a closer look

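Adding CLF to IBR went in opposite directions in different lines. The mean summed level of the 54 genes over libraries was 1.49 times that of IBR alone in MINO-VR, with IBR_CLF at 2214 and 2270 CPM and IBR at 1315 to 1628. In JEKO-1 it was 0.602 times, with IBR_CLF at 3402 and 3693 CPM and IBR at 5564 to 6075. In both lines the 2 IBR_CLF libraries, and 2 of the 3 IBR libraries, are name pairs that count as 1 sample, so each contrast is 1 sample against 2. The JEKO-1 IBR_CLF libraries were 60.7% and 59.1% mitochondrial, against 13.5% to 20.9% in IBR. The difference between the lines was not tested. Adding IBR to YM155 gave a summed level 2.36 times that of YM155 in Z138 (5161 against 2190 CPM) and 0.383 times in MINO-P (2182 against 5705), with 1 library each, and this difference was not tested either. By a test of the difference itself, the BTZ response was called different between the lines for 1 of the 54 members. In that test 4.1% of 15301 genes were called, so the call does not set the members apart. The member was CDC25B, with an F of 9.27 (limma adjusted p 0.0416). It kept that call in 8 of 25 alternatives, with adjusted p-values up to 0.115.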

How the results depend on the processing

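No member called in a comparison changed sign there under any alternative that was run. The labels carry no replicate numbers to pair samples by. With the final letter of the Z138 library names as a block, which the labels do not say marks a pairing, 48 members were called for BTZ and 11 for IBR in Z138, against 30 and 0. For IBR against CON the 19 became 7 with CPM as deposited, 12 without a filter, 40 without the series term, 0 without MINO-P, 4 without MINO-VR, 31 without JEKO-1 and 0 without Z138. For BTZ against CON the 49 became 31 without MINO-P and 28 without Z138. BTZ in Z138 gave 11 without a filter. For BTZ by line the 1 became 8 with CPM as deposited, where 4348 of all 14867 genes were called. The 1 became 0 with size factors, a filter of a mean of 5 CPM or every library as its own sample. It became 50 without libraries over 50% mitochondrial, an alternative chosen after seeing the data that leaves JEKO-1 BTZ with replicate 3 alone. There 9756 of all 14805 genes were called, so the 50 do not describe the members in particular. With libraries left out in turn the members called ranged from 42 to 54 (BTZ), 3 to 25 (IBR), 0 to 5 (YM155), 50 to 54 (BTZ in MINO), 0 to 46 (BTZ in Z138), 0 to 30 (IBR in Z138), 0 to 25 (BTZ by line), 0 to 2 (IBR by line), 2 to 2 (MINO-VR against MINO-P) and 0 to 0 in the other 6 comparisons. IBR against CON had 3 without Z138 CON replicate 2, 7 without Z138 CON replicate 1 or JEKO-1 CON, 8 without MINO-P CON, 11 without MINO-P IBR replicates 1 and 2, and 12 or 10 without a Z138 IBR library. For BTZ by line the highest count, 25 without JEKO-1 BTZ replicate 3, came with 4756 of all genes called. The Z138 BTZ library could not be left out of its own comparison or of the test by line. The causes were not tested. Of the 49 BTZ calls 25 held in all alternatives, and of the 30 in Z138 0 did. Depth limits the JEKO-1 libraries of BTZ, BTZ_CLF and IBR_CLF most, where 3 reads were worth up to 2.19 CPM.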
